A study of Mus musculus with 8 samples.

Results

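Cholesterol and fatty acids are built from cytosolic acetyl-CoA, and 34 genes of these routes were followed in pro-B cells of menin-deficient mice. The genes encode the enzymes of the mevalonate and sterol pathways, the SREBP regulators, the lipogenic enzymes, and proteins that export or transfer cholesterol. They were taken by name from the array annotation: 33 of the 34 had a named probe set (77 probe sets in all), and all 33 were among the 11885 genes tested, of 18193 genes named on the array. Acat2 had no probe set named here. Of the 77 probe sets, 66 passed the filter on low values and 11 did not, lying at or near the lowest value on the array.

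Menin, encoded by Men1, is a chromatin protein that works with MLL histone methyltransferases. Young mice, 2 to 3 weeks of age, of 2 genotypes were compared: 4 menin-deficient mice, which carried Rag1-cre and floxed Men1 (Rag1-cre;MenF/F), and 4 control mice, which carried floxed Men1 without the Cre (MenF/F). Both groups thus share the floxed allele and differ in the Cre as well as in menin, and an effect of the Cre and one of menin loss cannot be told apart. Fraction B pro-B cells (B220+ CD43+ HSA+ BP-1-) were sorted from bone marrow, and the RNA of each mouse was amplified and read on 1 whole-genome array as log2 expression values. The question asked was which genes depend on menin in B-cell progenitors.

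Cells sense sterols through the SREBP transcription factors. When membrane sterols are plentiful, Insig proteins hold Scap and the SREBP precursors in the endoplasmic reticulum; when sterols fall, Scap escorts the precursor to the Golgi, where it is cleaved, and the released factor switches on sterol and fatty acid genes, usually together with NF-Y and Sp1 bound nearby. Dividing lymphoid progenitors need both routes for new membrane.

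Men1 had log2 values of 7.850, 8.243, 8.495 and 8.031 in menin-deficient arrays, against 9.587, 9.194, 9.579 and 9.812 in control arrays. It was lower without overlap, at -1.39 (limma adjusted p = 0.00391, SE 0.18). Its RNA signal was reduced and not absent, as the lowest value in the data is 2.08. The arrays do not read menin protein. Genes are said to have risen or fallen, or to be called, at an adjusted p under 0.05, and a gene is read from its brightest probe set unless another is named. Arrays of 1 group correlated at 0.991 to 0.996 over the tested genes, and arrays of different groups at 0.985 to 0.991. Of 10 tested pro-B cell genes, Dntt and Igll1 rose (20%) and Rag1 fell (10%), against 16.2% and 5.17% of all genes tested. Of 4 sort markers 0 were called. At an unadjusted p under 0.05 0 were higher or lower, against 27.4% and 8.67% of all genes. The mean level of the pro-B cell genes per array was 14.16 to 14.29 in menin-deficient mice and 14.06 to 14.21 in control mice. The tested genes as a whole were shifted upward in menin-deficient arrays, with a median difference of 0.108, and setting the median tested gene of every array to the same level took 0.125 from every difference. Such results, called centred, are therefore given beside those on the deposited scale.

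Enzymes of cholesterol synthesis were higher in menin-deficient cells at several steps. Of 5 SREBP regulators and 5 genes of cholesterol export and transfer, none was called on its brightest probe set. Srebf2 and Abcg1, of these 2 lists, were called higher on another probe set. Whether the lists differ from the enzymes was not tested. Of the 33 members tested, 6 rose (18.2%) and 1 fell (3.03%), at shares close to those of all genes tested, of which 16.2% rose and 5.17% fell. The 6 were Fdps, Msmo1, Mvk, Tm7sf2, Fdft1 and Scd2, by 0.31 to 0.81 on the log2 scale, and the 1 was Acly, whose probe sets gave opposite calls. After centring, 3 members were higher and 2 (Acly and Acaca) lower, against 7.67% and 8.17% of all genes. Without menin-deficient replicate 2, control replicate 1 or control replicate 4 the members that rose numbered 3, all among the 6. The median difference of the members was 0.238, against 0.108 for all genes. These counts and medians describe the list and are no test of it.

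The 17 tested enzymes between acetyl-CoA and cholesterol held 5 of the 6 rises. In that group 5 of 17 rose (29.4%, against 16.2% of all genes) and 0 fell by limma (against 5.17%). At an unadjusted p under 0.05, 11 were higher (64.7%, against 27.4% of all genes) and 1 was lower (5.88%, against 8.67%). The difference was positive in 15 of 17 (88.2%, against 66.8% of all genes), the median difference was 0.423, and the 2 groups of mice did not overlap in 9 of 17 (52.9%, against 26.3% of all genes). After centring, 3 of them (Fdps, Msmo1 and Tm7sf2) were higher and 0 lower, against 7.67% and 8.17% of all genes. The centred median was 0.298, against -0.0173 for all genes. The unadjusted, positive and non-overlapping shares are on the deposited scale only. The shares of all genes include genes near the lowest value on the array, which can hardly be called. Some of these, with equal values in both groups, count as positive. No member had an array value under 6.965 on its brightest probe set, so these are not shares of comparably expressed genes.

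**Figure D1:**
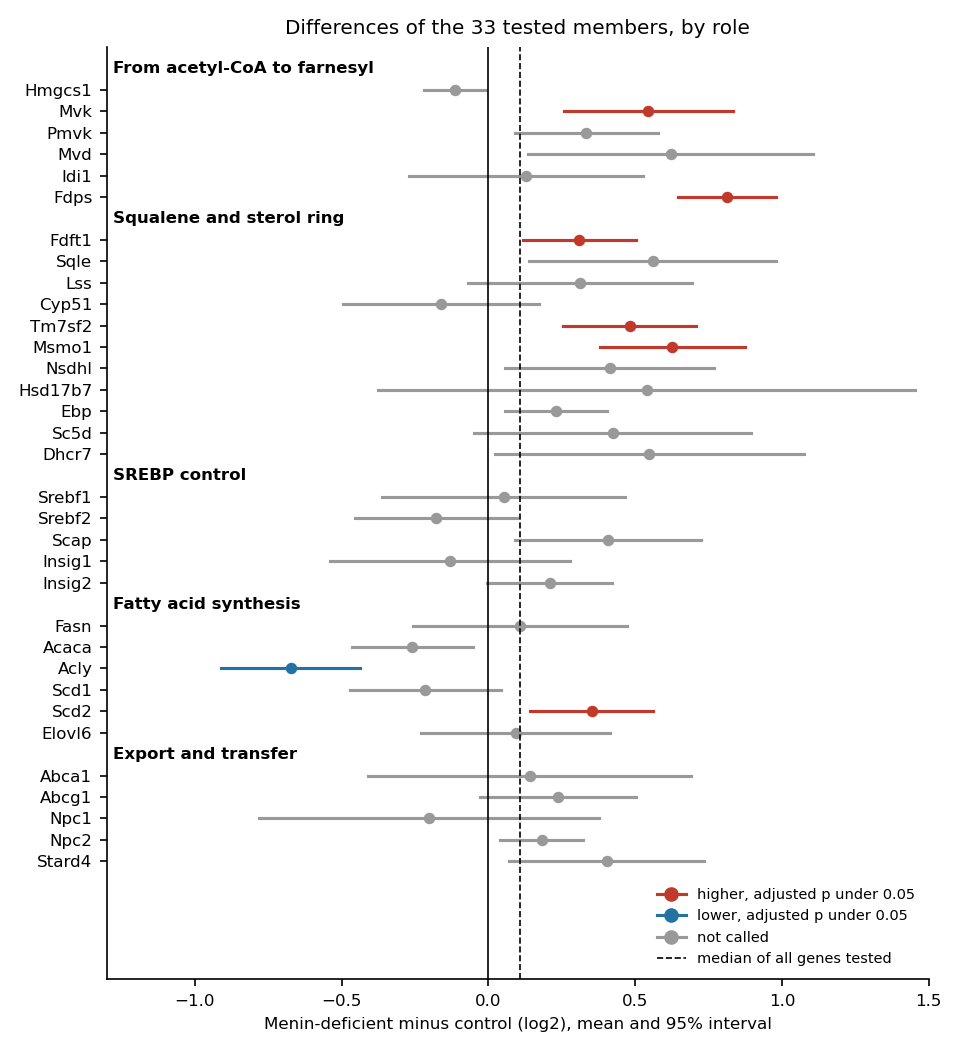
Log2 difference, menin-deficient minus control, of the brightest probe set of each of the 33 tested members, grouped by role, with its 95% interval from the fit (4 mice in each group). Red marks the 6 members that rose and blue the 1 that fell; most sterol enzymes lie to the right of the dashed line at 0.108, the median of all genes tested.

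Promoter sequences of some members are printed to show the letters that NF-Y and Sp1 are known to bind. RefSeq starts (GRCm38.p6) were found for 26 members, 15 of them sterol enzymes. Fdps and Fdft1 were not among them, so of the 5 sterol enzymes that rose only Mvk, Tm7sf2 and Msmo1 were searched. The 250 bases before each start were searched on both strands for CCAAT (NF-Y), GGGCGG (Sp1) and TCACNCCAC. The last is 1 form of the sterol response element that SREBP binds. CCAAT was found for 14 of 15 sterol enzymes (93.3%), 6 of 11 other members (54.5%) and 37.5% of all genes in the table. GGGCGG was found for 14 of 15 sterol enzymes, 8 of 11 other members (72.7%) and 35.4% of all genes. TCACNCCAC was found in Hmgcs1 and in no other member, against 1.22% of all genes. Counted by start rather than by gene, CCAAT was found before 77.8% of starts of sterol enzymes, 43.8% of those of other members and 33.8% of all starts. CACGTG, an E-box, was found for 3 of 15 sterol enzymes, 3 of 11 other members and 6.86% of all genes. CCAAT was present both in sterol enzymes that rose and in sterol enzymes that were not called. A match is a run of letters and not a measured binding site, and a link between these words and the rises was not tested. The 180 bases before the start follow, 5′ to 3′ along the gene, with matches to the NF-Y, Sp1 and SREBP words on either strand in capitals. Mvk, Mvd, Tm7sf2 and Msmo1 had a called rise on at least 1 probe set, Hmgcs1 holds the sterol response element and was not called, and Acly fell on 1 probe set and rose on another.
Mvk, chr5:114444089-114444268, plus strand: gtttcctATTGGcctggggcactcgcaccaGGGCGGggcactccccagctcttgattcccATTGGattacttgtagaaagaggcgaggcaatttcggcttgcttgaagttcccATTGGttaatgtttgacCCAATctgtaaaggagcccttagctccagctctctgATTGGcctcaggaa
Mvd, chr8:122443423-122443602, minus strand: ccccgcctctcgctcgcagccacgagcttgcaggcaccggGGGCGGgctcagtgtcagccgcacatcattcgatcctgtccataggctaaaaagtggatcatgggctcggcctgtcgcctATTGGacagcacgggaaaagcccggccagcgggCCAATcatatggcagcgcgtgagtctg
Tm7sf2, chr19:6067851-6068030, minus strand: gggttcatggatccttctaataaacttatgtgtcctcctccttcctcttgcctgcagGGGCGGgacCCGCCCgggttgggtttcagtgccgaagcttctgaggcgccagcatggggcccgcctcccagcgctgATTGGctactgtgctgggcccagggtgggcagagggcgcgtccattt
Msmo1, chr8:64733579-64733758, minus strand: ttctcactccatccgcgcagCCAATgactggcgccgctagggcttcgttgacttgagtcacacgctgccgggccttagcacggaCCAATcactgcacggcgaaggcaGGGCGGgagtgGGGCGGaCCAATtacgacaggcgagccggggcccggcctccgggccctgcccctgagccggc
Hmgcs1, chr13:119690171-119690350, plus strand: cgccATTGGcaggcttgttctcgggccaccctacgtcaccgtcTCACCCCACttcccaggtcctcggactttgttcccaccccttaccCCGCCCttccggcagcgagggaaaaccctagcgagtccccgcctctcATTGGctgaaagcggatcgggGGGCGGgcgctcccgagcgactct
Acly, chr11:100528001-100528180, minus strand: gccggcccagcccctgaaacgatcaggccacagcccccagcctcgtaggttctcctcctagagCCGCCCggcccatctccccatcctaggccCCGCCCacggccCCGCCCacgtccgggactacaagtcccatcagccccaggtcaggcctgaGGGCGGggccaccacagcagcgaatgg
In these windows Mvk holds 5 CCAAT matches, Msmo1 has 3, Mvd and Hmgcs1 have 2 each, Tm7sf2 has 1 and Acly has 0. Acly holds 4 GGGCGG matches.

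The mevalonate arm, which turns acetyl-CoA into farnesyl diphosphate, rose at Mvk and Fdps. Fdps, farnesyl diphosphate synthase, had log2 values of 11.25, 11.27, 11.25 and 11.04 in menin-deficient arrays, against 10.49, 10.39, 10.40 and 10.27 in control arrays. The groups lay well apart, and Fdps was 1.76-fold higher (log2 difference 0.81, SE 0.07, limma adjusted p = 0.00140). It was called under all 19 alternatives tried, with differences of 0.69 to 0.87. Its second probe set lay at the lowest value on the array in both groups.

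Mvk, mevalonate kinase, had 9.08, 9.20, 8.94 and 8.69 in menin-deficient arrays, against 8.25, 8.60, 8.42 and 8.45 in control arrays. All 4 menin-deficient values lay above the highest control, the closest by a small margin (log2 difference 0.54, SE 0.12, limma adjusted p = 0.0222). The call was lost after centring (adjusted p = 0.0580), with the mean of the probe sets, and without menin-deficient replicate 1 or 2 or control replicate 1 or 4 (limma adjusted p of 0.0509 to 0.0580). Over its 19 alternatives the adjusted p ran from 0.0128 to 0.139, and the dimmer probe set differed by 0.23.

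Mvd, which decarboxylates mevalonate diphosphate, changed on its dimmer probe set. That set had 7.23, 7.48, 7.06 and 7.24 in menin-deficient arrays, against 6.21, 5.85, 5.99 and 5.79 in control arrays. The groups did not overlap, and the difference was 1.29 (SE 0.12, limma adjusted p = 0.00255 among all probe sets). Its brighter set, of a type that can match several transcripts (_s_at), differed by 0.62 (adjusted p = 0.0738), with menin-deficient replicate 1 at 8.41 and the other 3 at 7.46 to 7.74, above the controls at 7.07 to 7.30.

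The other enzymes of this arm were not called. Pmvk, phosphomevalonate kinase, differed by 0.33 (95% interval 0.09 to 0.58, adjusted p = 0.0607) with groups that did not overlap. Idi1, isopentenyl diphosphate isomerase, differed by 0.13 on its brightest probe set and by -0.69 on the other (adjusted p = 0.111), so its probe sets do not show 1 direction. Hmgcs1, the HMG-CoA synthase of the cytosol, differed by -0.11 on the brightest of 5 probe sets (95% interval -0.22 to -0.01, adjusted p = 0.120). Another of the 5 differed by 0.63 (adjusted p = 0.0511), and the remaining 3 by -0.13 to 0.14.

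In the sterol arm, which closes squalene into lanosterol and trims it to cholesterol, Msmo1, Tm7sf2 and Fdft1 rose. Msmo1, the methylsterol oxidase that removes methyl groups from the sterol ring, had 10.35, 10.15, 10.27 and 10.20 in menin-deficient arrays, against 9.86, 9.37, 9.57 and 9.66 in control arrays. The groups did not overlap, and the difference was 0.63 (SE 0.10, limma adjusted p = 0.00883). The call was lost under 1 alternative of 19, the mean of the probe sets (adjusted p = 0.134), and its dimmer probe set differed by -0.01.

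Tm7sf2, a sterol reductase of the steps after lanosterol, had 8.29, 8.42, 8.66 and 8.23 in menin-deficient arrays, against 7.842, 7.920, 7.997 and 7.913 in control arrays. The control values lay close together and below every menin-deficient value (difference 0.48, SE 0.10, limma adjusted p = 0.0151), and all 19 alternatives kept the call. Tm7sf2 lies within 1 Mb of Men1 on chromosome 19 (neighbours from GRCm38.p6). Of 71 tested genes in that window besides Men1, 25.4% rose and 9.86% fell, and the part of this location in the result was not tested. No member lies on chromosome 2, which holds Rag1.

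Fdft1, squalene synthase, had 11.55, 11.64, 11.52 and 11.37 in menin-deficient arrays, against 11.27, 11.19, 11.33 and 11.05 in control arrays on its brightest probe set, an _x_at set. The lowest menin-deficient value lay just above the highest control value (difference 0.31, SE 0.08, limma adjusted p = 0.0375). A plain _at set had 11.81, 11.70, 11.67 and 11.35 in menin-deficient arrays, against 10.97, 11.10, 10.60 and 10.83 in control arrays, a wider gap of 0.75 (SE 0.14, limma adjusted p = 0.0162 among all probe sets). The call on the _x_at set was lost after centring (adjusted p = 0.173), with quantile normalization, with no filter, and without any 1 of menin-deficient replicates 1, 2 and 3 and control replicates 1, 2 and 4 (limma adjusted p of 0.0691 to 0.0944). Without _x_at and _s_at probe sets the adjusted p was 0.0117. Over its 19 alternatives it ran from 0.0107, with the mean of the probe sets, to 0.173.

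**Figure D2:**
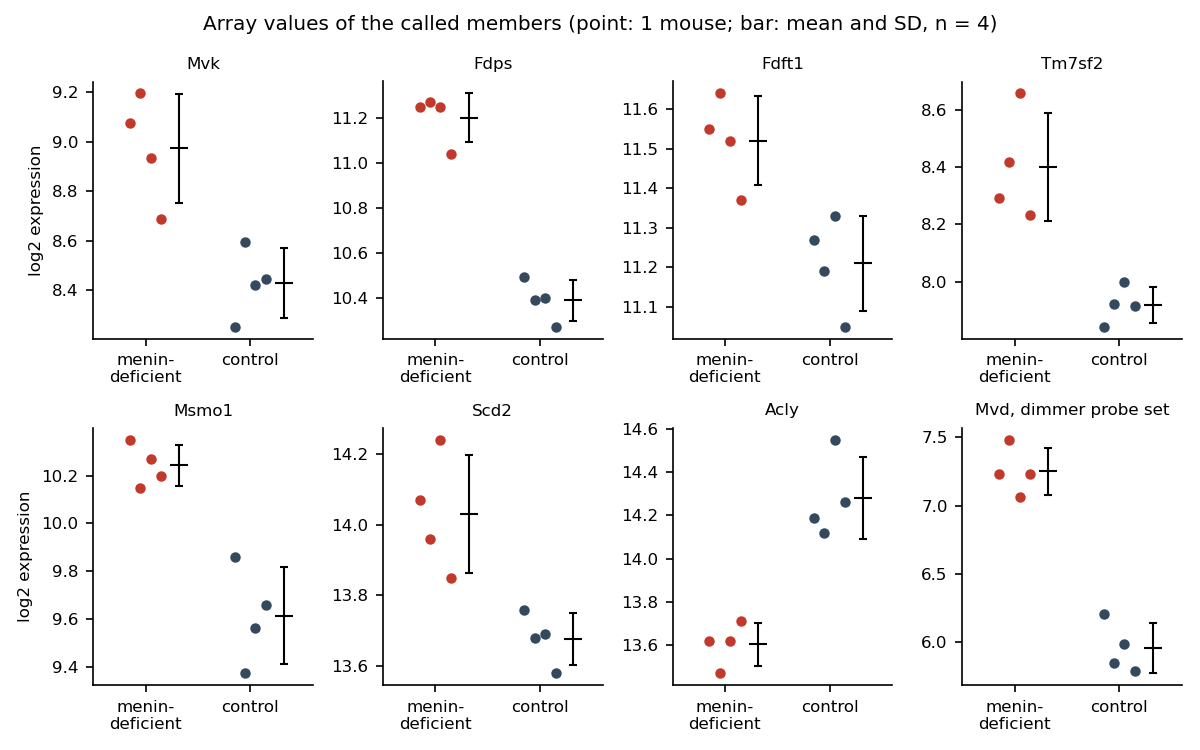
Log2 expression of 8 probe sets in each of 4 menin-deficient mice (red) and 4 control mice (dark blue), with mean and SD; vertical axes differ between panels and do not start at 0. In all 8 panels the 2 groups do not overlap, and Acly alone is lower in menin-deficient mice.

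The remaining sterol enzymes were not called on their brightest probe sets. Sqle, squalene epoxidase, differed by 0.56 (95% interval 0.14 to 0.98, adjusted p = 0.0655); control replicate 3, at 10.91, overlapped menin-deficient replicate 3, at 10.76. Ebp, the sterol isomerase, differed by 0.23 (adjusted p = 0.0653) and Nsdhl, a sterol dehydrogenase, by 0.41 (adjusted p = 0.0960), both X-linked genes whose groups did not overlap. By Xist and Eif2s3y, 2 of 4 menin-deficient and 1 of 4 control mice were male. Dhcr7 and Sc5d, which act near the end of the pathway, differed by 0.55 and 0.42, and Lss, which closes the ring, by 0.31, with overlapping groups.

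Hsd17b7, a ketosteroid reductase of the pathway, had probe sets of unequal spread. On its brightest set, an _x_at set, it differed by 0.54 (95% interval -0.38 to 1.46, adjusted p = 0.362). A plain _at set had 8.75, 8.82, 8.94 and 8.38 in menin-deficient arrays, against 8.16, 8.13, 8.27 and 8.07 in control arrays, without overlap (0.57, SE 0.12, limma adjusted p = 0.0257 among all probe sets). Cyp51, the lanosterol demethylase, differed by -0.16 on the brightest set and by 0.56 on the next (adjusted p = 0.141), neither past the threshold.

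None of the 5 SREBP regulators was called by limma on its brightest probe set, and 1 of 5 was higher (20%, against 27.4% of all genes) at an unadjusted p under 0.05. Srebf2, which encodes the SREBP that drives sterol genes, had 9.30, 9.27, 9.52 and 9.46 in menin-deficient arrays, against 9.47, 9.68, 9.80 and 9.32 in control arrays. These values overlapped (difference -0.18, 95% interval -0.45 to 0.10, adjusted p = 0.313). Its other probe set had 9.14, 8.99, 9.19 and 9.17 in menin-deficient arrays, against 8.40, 8.56, 8.75 and 8.64 in control arrays. It showed the opposite direction without overlap (0.53, SE 0.08, limma adjusted p = 0.0108 among all probe sets, and 0.0210 after centring), so no direction can be given for Srebf2.

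Srebf1, which encodes the SREBP forms that favour fatty acid genes, had 10.52, 10.25, 10.64 and 10.19 in menin-deficient arrays, against 10.29, 10.36, 10.75 and 9.99 in control arrays. The values intermingled (difference 0.05, 95% interval -0.36 to 0.47, adjusted p = 0.870). Scap, the SREBP escort, had 11.93, 11.91, 12.48 and 12.09 in menin-deficient arrays, against 11.58, 11.71, 11.84 and 11.67 in control arrays. The groups did not overlap, but the difference of 0.41 did not pass (95% interval 0.09 to 0.72, adjusted p = 0.0713); with the 60th percentile filter and with array weights it did (adjusted p of 0.0487 and 0.0352, within a range of 0.0352 to 0.159 over 19 alternatives).

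Insig1, a retention protein that is itself a well-known SREBP target, had 9.84, 9.75, 9.81 and 9.94 in menin-deficient arrays, against 10.14, 9.86, 10.35 and 9.51 in control arrays. The menin-deficient values lay inside the range of the controls (difference -0.13, 95% interval -0.54 to 0.28, adjusted p = 0.629). Insig2, its relative, differed by 0.21 on its brightest set, by -0.01 on the next and by -0.29 on the third, which was lower after centring (-0.41, limma adjusted p = 0.0362 among all probe sets) and not on the deposited scale (adjusted p = 0.108).

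Among the 6 lipogenic enzymes, Scd2 rose, Acly fell on its brightest probe set and 4 were not called. Scd2, a stearoyl-CoA desaturase, had 14.07, 13.96, 14.24 and 13.85 in menin-deficient arrays, against 13.76, 13.68, 13.69 and 13.58 in control arrays. The groups did not overlap (difference 0.35, SE 0.09, limma adjusted p = 0.0324), and a dimmer set differed by 0.83 (limma adjusted p = 0.0436 among all probe sets). The call was lost after centring (adjusted p = 0.128, the highest of its 19 alternatives, which began at 0.0236), with sex as a covariate (limma adjusted p = 0.0538), with quantile normalization, with no filter, and without any 1 of menin-deficient replicates 1 and 2 and the 4 control arrays (limma adjusted p of 0.0551 to 0.0773). Scd1, its neighbour on chromosome 19, differed by -0.21 (95% interval -0.47 to 0.04, adjusted p = 0.203) and by -0.76 on its dimmer set (adjusted p = 0.118), below 0 on both sets. Whether Scd1 and Scd2 differ in their response was not tested.

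Acly, ATP-citrate lyase, which makes cytosolic acetyl-CoA, gave opposite calls on different probe sets. The brightest, an _x_at set, had 13.62, 13.47, 13.62 and 13.71 in menin-deficient arrays, against 14.19, 14.12, 14.55 and 14.26 in control arrays. It was lower without overlap (-0.67, SE 0.10, limma adjusted p = 0.00626). A plain _at set had 10.73, 10.96, 10.82 and 10.87 in menin-deficient arrays, against 10.42, 10.30, 10.55 and 10.68 in control arrays, and was higher (0.36, SE 0.09, limma adjusted p = 0.0442 among all probe sets). Another plain set differed by 0.12, and after centring that set and the higher one were at -0.005 and 0.23, neither called. No direction can therefore be given for Acly.

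Fasn, the fatty acid synthase itself, differed by 0.11 (95% interval -0.26 to 0.47, adjusted p = 0.661). Acaca, acetyl-CoA carboxylase, differed by -0.26 (adjusted p = 0.0774) and was lower after centring (-0.38, limma adjusted p = 0.0309). Elovl6, an elongase of long-chain fatty acids, differed by 0.09 on its brightest set and 0.07 on the next. Its dimmest set had 3.85, 3.96, 4.14 and 3.83 in menin-deficient arrays, against 4.67, 6.19, 5.17 and 5.17 in control arrays, a fall of -1.36 near the lower end of the scale (SE 0.30, limma adjusted p = 0.0294 among all probe sets).

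None of the 5 genes of cholesterol export and transfer was called by limma on its brightest set, and 2 of 5 were higher (40%, against 27.4% of all genes) at an unadjusted p under 0.05. Abca1 and Abcg1, the cholesterol exporters, differed by 0.14 and 0.24. Abcg1 rose on its dimmer set, with 8.10, 8.09, 8.33 and 7.48 in menin-deficient arrays, against 7.09, 7.49, 7.32 and 6.84 in control arrays. Menin-deficient replicate 4 lay within the control range (0.82, SE 0.21, limma adjusted p = 0.0477 among all probe sets, and 0.0651 after centring). Npc2 and Npc1, which move cholesterol out of lysosomes, differed by 0.18 (adjusted p = 0.0718) and -0.20 (adjusted p = 0.596), and Stard4, a sterol transfer protein, by 0.40 (adjusted p = 0.0850).

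Tested each on its own, 13 of the 66 probe sets that passed the filter rose and 2 fell, against 9.34% and 4.87% of 26790 probe sets. They belong to 12 members, 5 of them called on a probe set that does not represent the gene in the main comparison (Mvd, Hsd17b7, Srebf2, Elovl6 and Abcg1). Of 20 members with more than 1 tested probe set, 9 had probe sets on both sides of 0. After centring, 7 probe sets were higher and 4 lower. The centred share of all probe sets was not counted, so these 2 numbers have nothing to be set against.

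**Figure D3:**
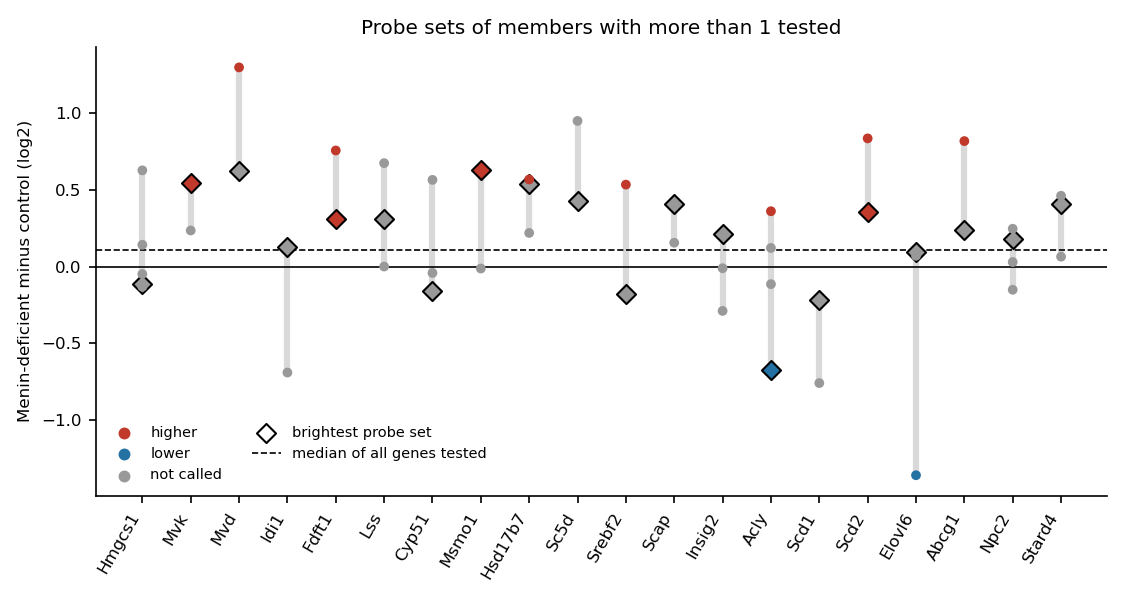
Log2 difference, menin-deficient minus control, of every tested probe set of the 20 members with more than 1; diamonds are the brightest set of a gene, red and blue mark sets called higher or lower when each is tested on its own. Acly and Srebf2 show probe sets of opposite direction, while those of Mvk, Mvd, Fdft1, Hsd17b7, Sc5d and Scd2 all lie above 0.

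The mice of a group also differed among themselves in the sterol enzymes. In menin-deficient mice, replicate 1 was the highest array for 8 of 17 sterol enzymes (47.1%, against 25.1% of all tested genes), among them Mvd, Sqle, Lss, Cyp51 and Dhcr7, and replicate 4 was the lowest for 11 (64.7%, against 22.8%). In control mice, replicate 3 was the highest for 9 of 17 (52.9%, against 33.5%) and for 21 of all 33 members (63.6%), Srebf1, Srebf2, Insig1 and Fasn included. The mean level of the 17 enzymes was 10.56, 10.39, 10.44 and 10.22 in menin-deficient mice and 9.94, 10.03, 10.10 and 9.99 in control mice. The lowest menin-deficient mean lay above the highest control mean. The median tested gene separated the groups as well. It stood at 10.25, 10.26, 10.29 and 10.24 for the menin-deficient mice, with control mice at 10.13, 10.09, 10.17 and 10.15. The enzyme means are on the deposited scale, so their separation includes this shift of all genes. Whether the enzyme means stay apart after centring was not tested.

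**Figure D4:**
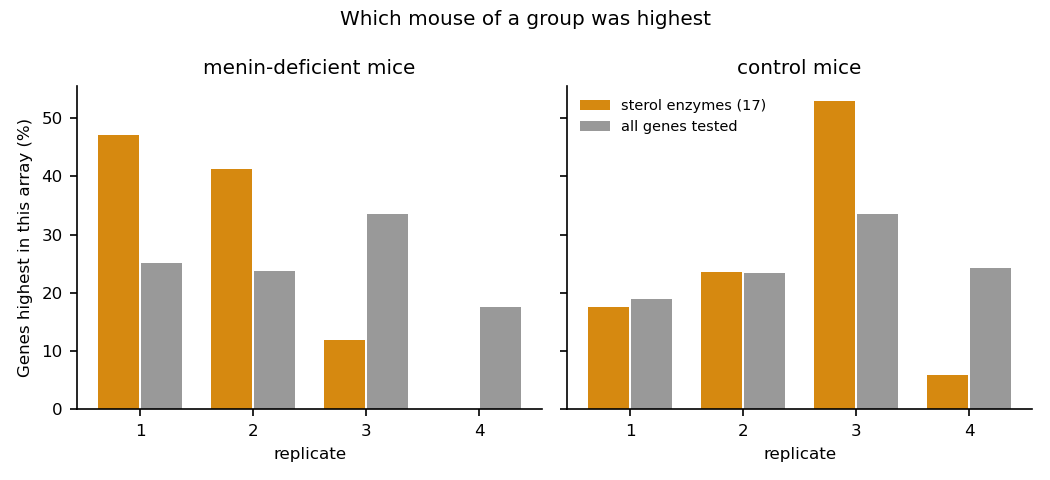
Share of genes (%) for which each mouse was the highest of its group, for the 17 sterol enzymes (orange) and all tested genes (grey); genes with tied values within a group were left out. Menin-deficient replicate 1 (47.1%) and control replicate 3 (52.9%) stand above their grey bars, and menin-deficient replicate 4 is highest for 0 of 17.

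Several genes next to the fatty acid pathway rose. Of 20 tested genes listed under fatty acid elongation, desaturation and activation, 8 rose (40%) and 2 fell (10%), against 16.2% and 5.17% of all genes. The list also holds genes of other steps, and Slc25a1 and Mcat are such genes among the 8. After centring 5 were higher and 3 lower, against 7.67% and 8.17% of all genes. The median difference on the deposited scale was 0.176, against 0.108 for all genes. Slc25a1, the carrier that exports citrate from mitochondria as the source of cytosolic acetyl-CoA, had 12.49, 12.66, 12.45 and 12.60 in menin-deficient arrays, against 11.73, 11.88, 11.68 and 11.76 in control arrays. It was 1.73-fold higher (0.79, SE 0.06, limma adjusted p = 0.00122) on its 1 tested probe set, with no overlap.

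Fads2, a desaturase of polyunsaturated fatty acids, had 9.96, 9.98, 9.75 and 9.52 in menin-deficient arrays, against 8.98, 8.88, 8.83 and 9.03 in control arrays. Fads3, of the same gene cluster, had 8.03, 8.33, 7.99 and 7.94 in menin-deficient arrays, against 7.24, 7.35, 7.21 and 6.98 in control arrays. Both were higher without overlap, by 0.87 and 0.88 (SE 0.11 each, limma adjusted p = 0.00399 and 0.00397). Fads1, the remaining gene of the cluster, named after its values were seen, was higher by 0.76 (SE 0.15, limma adjusted p = 0.0162). Dimmer probe sets of Fads1 and Fads2 differed by 0.03 and by 0.90 and -0.16, none past the threshold. The 3 Fads genes lie within 5 Mb of Men1, where 22.1% of 181 tested genes rose, and the part of this location was not tested. Hacd2, a dehydratase of the elongation cycle, was higher by 0.43 (SE 0.06, limma adjusted p = 0.00527) and by 0.44 on its other probe set. The 2 that fell, named after their values were seen, were Acsl4, a fatty acid activating enzyme, at -0.59 (limma adjusted p = 0.00597), and Elovl1, an elongase, at -0.14 (limma adjusted p = 0.0294). Other probe sets of Acsl4 differed by -0.09 and -0.03. One of Elovl1 was higher by 0.53 (limma adjusted p = 0.00725 among all probe sets), so its sets gave opposite calls.

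Of 13 tested genes of the isoprenoid branches, which use farnesyl diphosphate and its products, 2 rose (15.4%) and 1 fell (7.69%), shares near the 16.2% and 5.17% of all genes. Rce1, the protease that trims prenylated proteins, was higher by 0.48 (SE 0.05, limma adjusted p = 0.00252) and also lies within 5 Mb of Men1. Rabggtb, a subunit of the Rab prenyltransferase, was higher by 0.25 (SE 0.07, limma adjusted p = 0.0478) with overlapping groups, a call lost after centring (adjusted p = 0.381). Fnta, the subunit shared by farnesyltransferase and a related prenyltransferase, was lower by -0.51 (SE 0.08, limma adjusted p = 0.00733) on an _s_at set, and its other set differed by -0.17 (adjusted p = 0.312). After centring 1 of the 13 was higher and 2 were lower, against 7.67% and 8.17% of all genes.

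Of 18 tested genes of sterol esters, oxysterols and LXR, 2 rose (11.1%) and 1 fell (5.56%), against 16.2% and 5.17% of all genes. Lpcat3, a phospholipid remodelling enzyme and LXR target, was higher by 0.45 (SE 0.11, limma adjusted p = 0.0259, and 0.0975 after centring), and Gramd1a, which carries sterols from the plasma membrane to the endoplasmic reticulum, by 0.65 (SE 0.16, limma adjusted p = 0.0281). Rxrb, a retinoid receptor that pairs with LXR, was lower by -0.32 (SE 0.08, limma adjusted p = 0.0265). Of 11 tested genes of SREBP cleavage and degradation, 0 rose and 0 fell by limma, and 5 were higher (45.5%, against 27.4% of all genes) and 0 lower at an unadjusted p under 0.05.

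**Figure D5:**
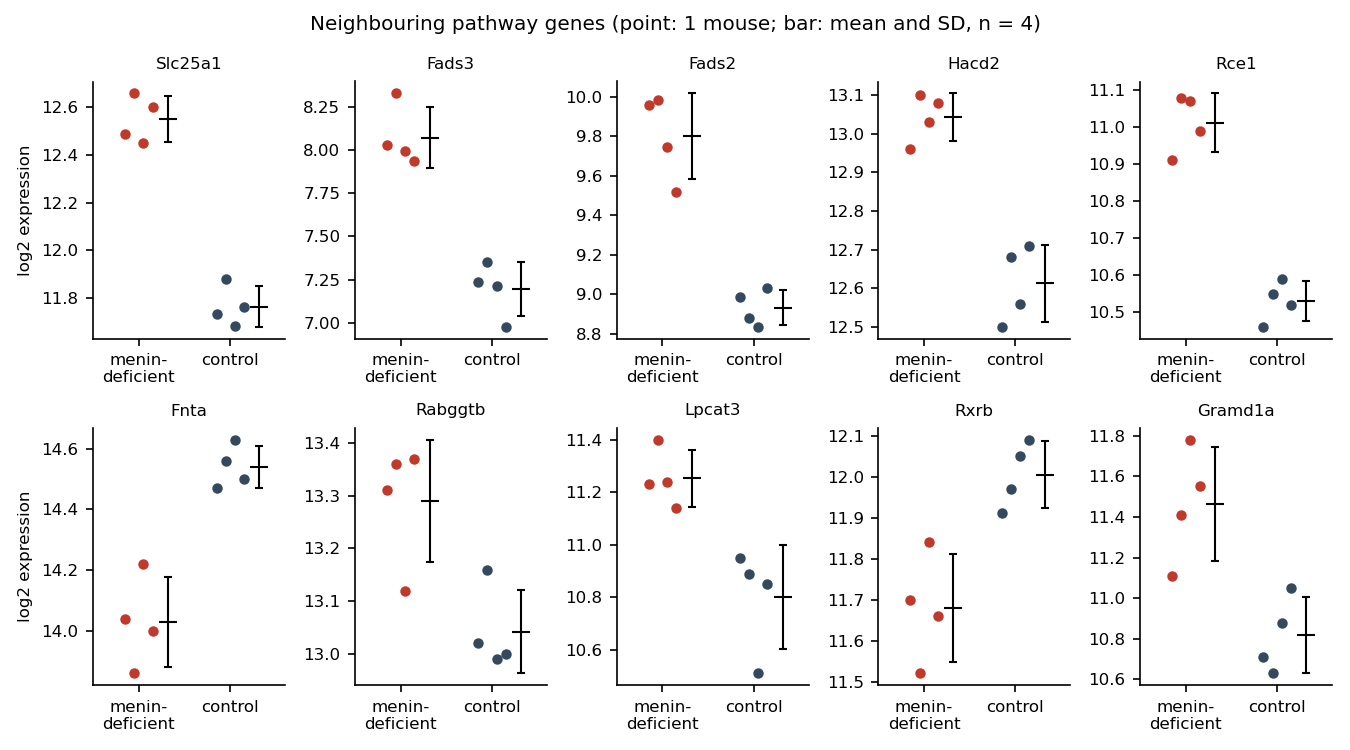
Log2 expression of 10 pathway genes that are not members, in 4 menin-deficient mice (red) and 4 control mice (dark blue), with mean and SD; vertical axes differ between panels and do not start at 0. Slc25a1, Fads2 and Fads3 lie 0.79 to 0.88 higher in menin-deficient mice, and Fnta and Rxrb lie lower.

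Markers of other cells and of the cell cycle were read beside these results. Of all genes tested, 16.2% rose, and at an unadjusted p under 0.05 27.4% were higher and 8.67% lower. Of 9 tested mitosis genes 0 were called by limma, with 3 higher (33.3%) and 0 lower at an unadjusted p under 0.05. Their mean level per array was 13.82 to 14.05 in menin-deficient mice and 13.72 to 13.85 in control mice. Of 7 tested NK cell markers 3 rose (42.9%), and their mean level was 7.17 to 8.05 in menin-deficient mice and 6.30 to 6.81 in control mice. Of 7 plasmacytoid dendritic cell markers 2 rose (28.6%), Ccr9 by 1.65 and Irf7 by 1.10. Klk1 differed by -0.09, and Tlr9 lay near the lowest value in both groups. The mean level of the 7 was 8.59 to 8.89 in menin-deficient mice and 7.92 to 8.16 in control mice. Of 9 monocyte and macrophage markers 4 rose (44.4%), with a mean level of 7.09 to 8.40 in menin-deficient mice and 7.12 to 7.498 in control mice. The 7 T cell markers averaged 4.09 to 4.17 in menin-deficient mice and 3.56 to 3.61 in control mice, and 2 of the 3 tested rose (66.7%). These were Thy1, which other cells also carry, by 2.65 (limma adjusted p = 0.00274), and Cd3g by 0.78 (limma adjusted p = 0.0309), while Cd3e, Cd3d, Cd4 and Cd8b1 were at or near the lowest value (2.08) in both groups. The mean levels of 7 neutrophil and 5 erythroid markers overlapped between the groups, and 0 of them were called by limma, with 1 neutrophil and 0 erythroid markers higher at an unadjusted p under 0.05. The NK cell, plasmacytoid dendritic cell and T cell levels were higher in all 4 menin-deficient mice than in any control mouse. The T cell level rests largely on Thy1, as Cd3e, Cd3d, Cd4 and Cd8b1 did not move from the lowest values. The part of other cells in these results was not tested. In RNA of a sorted population, a different share of cells and a different amount of RNA per cell cannot be told apart.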

How the data were processed

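Expression in sorted pro-B cells of 8 mice was measured on Affymetrix whole-genome mouse arrays. The authors deposited 1 table of log2 values, a scale judged from their range (2.08 to 17.4); MAS5 and GCRMA are named, per the submitters' processing notes, but the sources used here do not say which produced the table. Precision is limited by there being 4 arrays a group. The labels describe the samples as biological replicates.

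Groups came from the sample titles. After 64 control probe sets were left out, probe sets above the 40th percentile of their own array on at least 4 of 8 arrays were kept (26790 of 45037), and each gene was read from its brightest probe set on average, for genes named by 1 symbol in the platform annotation (11885 genes). Menin-deficient minus control was fitted across all genes by limma 3.58.1 under R 4.3.3 (lmFit, then eBayes) without covariates, adjusted by Benjamini-Hochberg, with a threshold of 0.05; each of the 26790 probe sets was also tested on its own. Adjusted p-values of a gene's brightest probe set are from the gene fit, and those of its other probe sets from the fit of all probe sets. The code was tested on simulated data.

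Members and lists were chosen with earlier results of these data known, and so were the promoter words. Array values were given for each called member and for Srebf1, Srebf2, Scap and Insig1, other probe sets where called or of opposite sign by over 0.3, and up to 4 called genes with the lowest p of each neighbouring list. Promoters came from RefSeq (GRCm38.p6). Alternatives were sex as a covariate, a replicate block, array weights, a trended and a robust prior variance, averaging the probe sets of each gene, leaving out _x_at and _s_at sets, a filter at the 60th percentile or none, centring, quantile normalization, and omission of each array. Plots were drawn with matplotlib 3.10.9.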

Additional observations from a re-analysis of the deposited data

Results flagged for a closer look

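In 66 sets of 4 arrays, from the 33 tested members in each group, 3 arrays stood far from the other 3 of their set by Dixon's test at its 95% critical value, which chance does in about 1 of 20 sets. Fdps was at 11.04 in menin-deficient replicate 4, where the other menin-deficient arrays had 11.25 to 11.27, and still lay above the highest control array, at 10.49. Without that array Fdps was called as well (limma adjusted p = 0.00217). Cyp51 was at 9.774 in menin-deficient replicate 1, where the others had 9.261 to 9.308. Npc2 was at 15.52 in menin-deficient replicate 1, where the others had 15.69 to 15.73. Neither Cyp51 nor Npc2 was called.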

How the results depend on the processing

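The rises of Fdps and Tm7sf2 were called under all 19 alternatives and that of Msmo1 under 18, while Mvk lost its call under 7, Fdft1 under 10 and Scd2 under 11. The count of changed genes, 2536 on the deposited values, was 1882 after centring, 1673 with no filter and 1328 with the replicate block. It was 3360 with array weights and 1413 to 2269 with 1 array left out. Members that rose numbered 6, with 3 after centring, 11 with array weights and 3 to 6 with 1 array left out (3 without menin-deficient replicate 2, control replicate 1 or control replicate 4). Members that fell numbered 1, with 2 after centring, 0 with the mean of the probe sets, 0 without _x_at and _s_at sets and 1 to 2 with 1 array left out. Probe sets that rose, 13 in all, were 7 with quantile normalization, 7 after centring, 5 with no filter, 5 with the replicate block and 4 to 11 with 1 array left out. Those that fell, 2 in all, were 4 after centring, 1 each with no filter, the 60th percentile filter, no _x_at or _s_at sets, and sex as a covariate, and 1 to 2 with 1 array left out.

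Without _x_at and _s_at sets Acly turned to 0.121. Srebf1 turned to -0.00167 with quantile normalization and -0.0726 after centring. With 1 array left out Srebf1 ran from -0.0663 (without control replicate 4) to 0.186, and was -0.0273 without menin-deficient replicate 3. Srebf2 turned to 0.177 with the mean of its probe sets. For Acly and Srebf2 the alternatives read other probe sets, and for centring a constant is subtracted; the other causes were not tested. Replicate numbers gave no sign of pairing the mice: deviations of same-numbered arrays correlated at -0.31 to 0.05. Each menin-deficient array correlated best with a control array of another number, at 0.12 to 0.34. So few values cannot settle whether the numbers pair mice. With the replicate block 5 members rose, 3 of them among the 6, and Mvk, Fdft1 and Scd2 had adjusted p of 0.0549, 0.0537 and 0.0528. On each array 42.8 to 43.2% of probe sets lay within 0.1 of the lowest value, where differences cannot be read.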
